A study of Mus musculus with 58 samples.

Results

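The Bcl2 family of cell death genes was followed as 10 genes of the 23152 in the deposited count table, taken by their symbols: Bcl2, Bcl2l1 and Mcl1, whose proteins keep cells alive, and Bcl2l11, Bid, Bad, Bbc3, Pmaip1, Bax and Bak1, whose proteins promote death. All 10 symbols were found, and each had a count in at least 1 cell. The counts came from 58 cells of C57BL/6 wild-type mouse bone marrow, each sorted and sequenced alone. Of these, 34 were long-term haematopoietic stem cells by their gate (LT-HSC; lineage-negative, Kit+, Sca-1+, Flt3-, CD34-) and 24 were common myeloid progenitors (CMP; lineage-negative, Kit+, Sca-1-, CD16/32-, CD34+). No treatment was given, the labels carry "passages" with the value 8-10 for cells from both gates without saying what was passaged, and age, sex and animal are not given in the sources used here. Each gate was therefore 1 sample, no difference has a replicate check, and no test was made.

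Proteins of this family decide whether the outer mitochondrial membrane stays closed. The effectors Bax and Bak1 open it, cytochrome c leaves, and caspases are activated. The survival proteins Bcl-2, Bcl-xL (from Bcl2l1) and Mcl-1 hold the effectors and the BH3-only proteins in check, and the BH3-only proteins (Bim from Bcl2l11, Bid, Bad, Puma from Bbc3, Noxa from Pmaip1) carry stress and loss of growth factor signals to the others. In mouse bone marrow, loss of Mcl1 depletes stem and progenitor cells, and Bcl2l1 is known for its part in the survival of maturing red cells. Much of the control of these proteins lies after transcription, so the values given are of RNA only.

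The median total was 236774 counts in LT-HSC (range 45022 to 860553) and 290977 in CMP (range 88329 to 706184). Counts were summed over a gate and divided by its total to give CPM, with a 95% counting interval in brackets that covers counting error only, and 3 counts over a pool, the floor used, equal 0.30 CPM in LT-HSC against 0.42 in CMP. The stem cell markers Procr, Hlf and Mecom summed to 221 CPM in LT-HSC against 18.1 in CMP, and the myeloid progenitor markers Mpo, Elane and Gata1 to 44.0 and 2787. Of the genes behind the gates, which were set on surface protein, Ly6a, which encodes Sca-1, was at 132 CPM against 15.1. Cd34 RNA did not follow its gate, at 254 CPM in the CD34- LT-HSC against 206 in the CD34+ CMP, and Flt3 was at 49.2 CPM in the Flt3- LT-HSC against 69.5. The 9 neutrophil markers, which neither gate should carry, all had counts in both gates, at 219 to 606 CPM summed per cell in LT-HSC and 3.03 to 5940 in CMP, and their part in the results was not tested. All 3 T cell markers were at 0, and the B cell, macrophage, endothelial and stromal lists each stood at or below 1.61 CPM. Xist was counted in 0 of 34 LT-HSC and in 22 of 24 CMP, all but CMP 1 and 2. Y-linked genes had a count in 32 of 34 LT-HSC, in CMP 1 and 2, and in 1 of the other 22 CMP, with 1 count. The CMP gate was thus itself mixed in sex-linked transcripts. Outside CMP 1 and 2, gate and sex-linked transcripts cannot be told apart. S100a8, a neutrophil gene, had a count in all 58 cells. A share of cells with at least 1 count is for that reason given beside the share with at least 10.

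The windows before the transcription starts of the 3 survival genes are printed because Bcl2 and Mcl1 were higher in CMP and Bcl2l1 in LT-HSC. Each is the 250 bases upstream of a RefSeq start (build GRCm38.p6), 5′ to 3′ on the gene's strand, with GGGCGG, the GC box that binds Sp1-like factors, in capitals on either strand. The Bcl2 window is chr1:106714291-106714540, minus strand. The Bcl2l1 window is chr2:152831729-152831978, minus strand, the most upstream of 3 listed starts, and the Mcl1 window is chr3:95658471-95658720, plus strand. None of these windows overlapped an annotated exon.
Bcl2: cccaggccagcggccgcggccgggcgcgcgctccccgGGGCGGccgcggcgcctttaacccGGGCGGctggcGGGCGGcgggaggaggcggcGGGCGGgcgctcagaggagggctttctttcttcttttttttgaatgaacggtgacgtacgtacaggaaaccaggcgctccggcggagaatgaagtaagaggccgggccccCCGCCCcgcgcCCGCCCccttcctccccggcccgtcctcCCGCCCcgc
Bcl2l1: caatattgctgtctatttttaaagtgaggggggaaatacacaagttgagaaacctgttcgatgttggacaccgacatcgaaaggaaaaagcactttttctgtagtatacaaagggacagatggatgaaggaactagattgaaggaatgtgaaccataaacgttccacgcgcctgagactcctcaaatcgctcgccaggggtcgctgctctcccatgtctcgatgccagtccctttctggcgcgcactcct
Mcl1: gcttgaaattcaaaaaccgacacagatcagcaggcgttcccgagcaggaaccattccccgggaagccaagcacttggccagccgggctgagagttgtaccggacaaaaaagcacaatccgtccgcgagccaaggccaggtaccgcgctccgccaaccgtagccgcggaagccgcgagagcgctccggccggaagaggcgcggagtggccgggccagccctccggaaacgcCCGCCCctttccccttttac
The Bcl2 window held 7 GC boxes and 36 CpG dinucleotides, the Mcl1 window 1 and 26, and the Bcl2l1 window 0 and 12. Among other members higher in LT-HSC, Bid held 3 GC boxes, Bad 3 and 0 in its 2 windows, and Bbc3 5, 1 and 7 in its 3. Bcl2l11, higher in CMP, held 3 and 2 in its 2 windows. Over all 32851 RefSeq windows of this length, 32.7% held a GC box, and the median window held 6 CpG. The STAT motif TTCNNNGAA was in none of the windows found for 9 members, and 7.02% of all windows held it. A match or its lack describes these letters only.

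Bcl2, the founding survival gene (chromosome 1, 106538178 to 106714274, minus strand, mm10), was all but undetected in LT-HSC and present in CMP. The 34 LT-HSC held 3 counts, 2 in LT-HSC 21 and 1 in LT-HSC 32, which gave 0.30 CPM (counting interval 0.06 to 0.88). The 24 CMP held 605 counts, 85.7 CPM (counting interval 79.0 to 92.8), from 0 in the lowest cell through a median of 11.5 CPM to 441 in CMP 23. The log2 ratio, always LT-HSC over CMP, was −7.93 (counting interval −10.43 to −6.59), and without LT-HSC 21 it was −9.07. A count was seen in 2 of 34 LT-HSC and 17 of 24 CMP, and at least 10 counts in 0 and 11. With every cell thinned to 97978 counts, Bcl2 was seen in 0 of 30 LT-HSC (upper limit 11.6%) and 13 of 22 CMP (59.1%, interval 36.4% to 79.3%). The CMP were uneven, since 7 of the 24 had no Bcl2 count and 3 cells held 55.2% of the total. Within CMP 1, the only Bcl2-positive cell of the pair without Xist, 83 counts were found, and the log2 ratio over cells without an Xist count was −7.52.

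Bcl2l1, which encodes Bcl-xL (chromosome 2, 152780668 to 152831728, minus strand), had the opposite direction. It stood at 35.1 CPM (31.6 to 39.0) in LT-HSC and 7.08 CPM (5.25 to 9.33) in CMP, a log2 ratio of 2.30 (counting interval 1.88 to 2.77). This difference lay in few cells. Of 349 LT-HSC counts, 134 were in LT-HSC 34, 84 in LT-HSC 13 and 69 in LT-HSC 33, together 82.2%, and 27 of 34 LT-HSC had none, so that the median LT-HSC was at 0. In CMP, 12 of 24 cells had a count, but CMP 14 with 16 counts and CMP 17 with 15 were the only ones that reached 10. Without LT-HSC 34 the log2 ratio was 1.71, with CPM averaged over cells it was 1.54, and against CMP 1 and 2 alone, where 1 count was found, it was 4.92. The share of cells with a count (7 of 34 LT-HSC, 12 of 24 CMP) ran against the CPM, and after thinning it was 6 of 30 and 5 of 22, so no order was read from it.

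Mcl1, which encodes a short-lived survival protein (chromosome 3, 95658788 to 95663176, plus strand), was the survival gene seen in most cells of both gates. It was at 46.0 CPM (41.9 to 50.4) in LT-HSC and 119 CPM (111 to 128) in CMP, 2.59-fold higher in CMP, with a log2 ratio of −1.37 (counting interval −1.54 to −1.21). Per cell it ran from 0 through a median of 8.02 CPM to 500 in LT-HSC, and from 0 through 103 to 283 in CMP. The highest cell of all was LT-HSC 14, but only 9 of 34 LT-HSC held at least 10 counts, against 20 of 24 CMP. After thinning, a count was seen in 16 of 30 LT-HSC and 20 of 22 CMP. The ratio differed within the LT-HSC gate: against all CMP it was −0.38 for LT-HSC 1 to 16, at 91.5 CPM, and −2.42 for LT-HSC 17 to 34, at 22.2 CPM. These 2 blocks of cell numbers are given by no label and came from earlier work on these data.

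**Figure D1:**
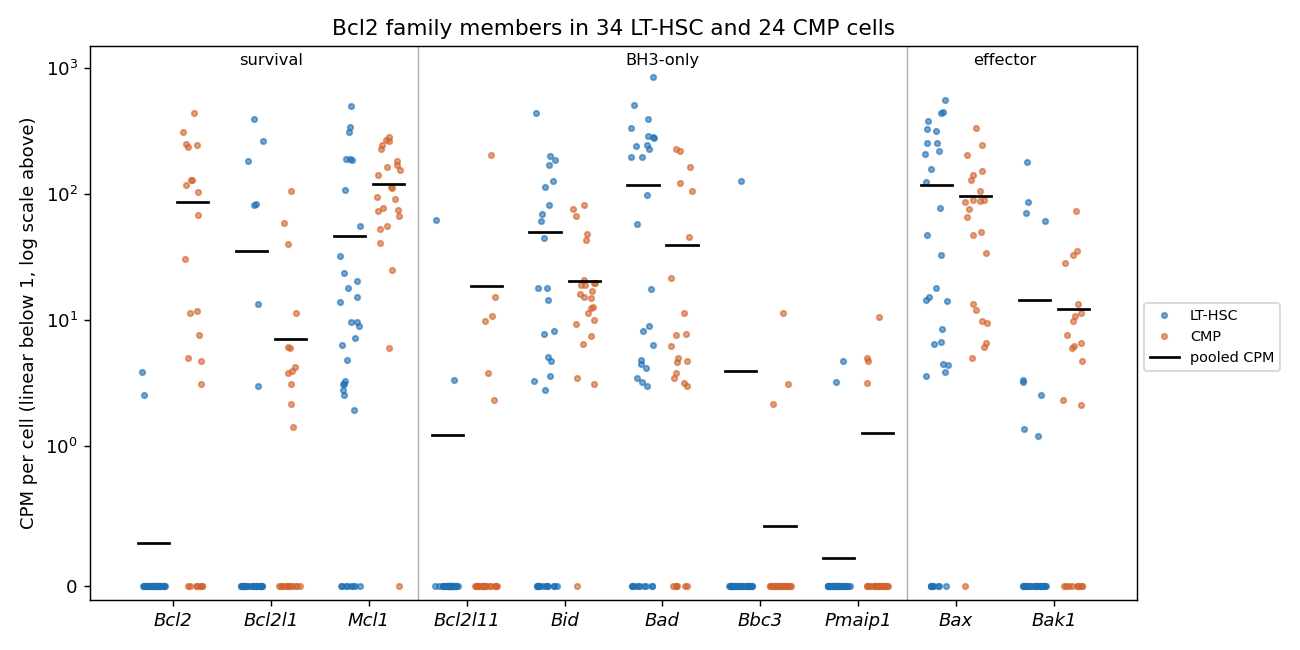
Level of each of the 10 members in each of the 34 LT-HSC (blue) and 24 CMP (orange), in CPM on an axis that is linear below 1 and logarithmic above, with the pooled CPM as a black bar. Bcl2 lies at 0 in 32 of 34 LT-HSC, whereas Mcl1, Bid, Bad and Bax run from 0 to above 50 CPM in cells of both gates.

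Among the BH3-only genes, Bad and Bid were higher in LT-HSC. Bad, whose protein binds Bcl-2 and Bcl-xL and is switched off by growth factor signalling (chromosome 19, 6941861 to 6951899, plus strand), stood at 119 CPM (112 to 126) in LT-HSC and 39.6 CPM (35.1 to 44.6) in CMP, a log2 ratio of 1.58 (counting interval 1.40 to 1.78). Levels per cell ran from 0 through a median of 7.26 CPM to 851 in LT-HSC 24, and from 0 through 4.86 to 228 in CMP. The gates overlapped, and at least 10 counts were held by 14 of 34 LT-HSC and 6 of 24 CMP. In LT-HSC 24 lay 22.4% of the LT-HSC counts, and the ratio without this cell was 1.26. Exons of Bad share 524 bases with exons of Gpr137 on the other strand. Whether counting used strand is not given in the sources used here, so reads of such pairs cannot be told apart. Bcl2 shares 558 exonic bases with D630008O14Rik on the other strand, and Bax 192 with Gm45808 on the same strand. Neither of these 2 partners has a row among the deposited counts.

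Bid links death receptors to the mitochondrion once caspase-8 cleaves its protein (chromosome 6, 120891930 to 120916853, minus strand). It stood at 50.04 CPM (45.7 to 54.6) in LT-HSC and 20.2 CPM (17.1 to 23.9) in CMP, with a log2 ratio of 1.30 (counting interval 1.03 to 1.58). Against CMP 1 and 2 alone the ratio was 2.15. The distribution differed in shape as well as level. In CMP, 23 of 24 cells had a Bid count but 5 reached 10, from 0 through a median of 15.7 CPM to 82.0, while in LT-HSC 20 of 34 had a count and 10 reached 10, from 0 through 4.13 to 439 in LT-HSC 7. Low counts in nearly every CMP thus stood against high counts in fewer LT-HSC, and after thinning 21 of 22 CMP and 16 of 30 LT-HSC had a count, again against the order of the CPM. The exons of Bid share 628 bases with those of Bcl2l13, which lies on the other strand and was higher in CMP.

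The other BH3-only genes rested on 1 cell or on few counts. Bcl2l11, the gene of Bim (chromosome 2, 128126038 to 128162547, plus strand), had 12 counts in LT-HSC and 132 in CMP, or 1.21 and 18.7 CPM, with a log2 ratio of −3.90 (counting interval −4.94 to −3.10). CMP 2 alone held 118 of the 132, and LT-HSC 29 held 11 of the 12. Without CMP 2 the ratio was −0.83, under 2-fold, and without LT-HSC 29 it was −6.93. Bbc3, the gene of the p53 target Puma (chromosome 7, 16308393 to 16318205, plus strand), had 39 counts in LT-HSC, all in LT-HSC 22, and 3 in CMP, 1 in each of 3 cells, for 3.93 and 0.42 CPM and a log2 ratio of 3.005 (counting interval 1.56 to 5.55). Against CMP 1 and 2, with no count, the log2 ratio was at least 0.75 with that pair set at the floor of 3 counts, and without LT-HSC 22 both pools were at or under the floor and no ratio was given. Pmaip1, the gene of Noxa, another p53 target, had 2 counts in LT-HSC and 9 in CMP, a log2 ratio of −2.42 (counting interval −5.91 to −0.39), which was −3.12 without LT-HSC 13 and −1.44 without CMP 3. It was the member that did not reach 20 counts over both pools.

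The effectors were close between gates. Bax (chromosome 7, 45461697 to 45466898, minus strand) stood at 119 CPM (112 to 126) in LT-HSC and 96.0 CPM (88.9 to 104) in CMP, with a log2 ratio of 0.30 (counting interval 0.17 to 0.44) that turned to −0.38 with LT-HSC 1 to 16 and to −0.43 with cells without an Xist count. At least 10 Bax counts were held by 14 of 34 LT-HSC and 14 of 24 CMP, and a count by 26 and 23. Levels ran from 0 through a median of 14.7 CPM to 563 in LT-HSC, and from 0 through 71.1 to 337 in CMP. The LT-HSC values were therefore wider spread, with a lower median and a higher top. Bak1 (chromosome 17, 27019810 to 27029009, minus strand) was at 14.4 CPM (12.1 to 17.0) in LT-HSC and 12.2 CPM (9.74 to 15.04) in CMP, a log2 ratio of 0.24 (counting interval −0.15 to 0.64). Its direction was not stable, at −0.34 without LT-HSC 12, which held 35.0% of the LT-HSC counts, at 1.19 with LT-HSC 1 to 16 and at −0.72 with LT-HSC 17 to 34. Bak1 shares 614 exonic bases with Ggnbp1 on the other strand.

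Counted together, 9 members had at least 20 counts, and 7 of the 9 differed at least 2-fold between gates, where 50.8% of the 10937 genes with that many counts did. Of these, 4 were higher in LT-HSC (Bcl2l1, Bid, Bad and Bbc3), with 22.7% of all genes that far apart in this direction, and 3 in CMP (Bcl2, Mcl1 and Bcl2l11), with 28.1%. Bax and Bak1 lay between. The count was 6 without LT-HSC 22 or without CMP 2, which carry Bbc3 and Bcl2l11. The median log2 ratio of the 9 was 0.30, beside −0.13 over all 10937 genes.

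**Figure D2:**
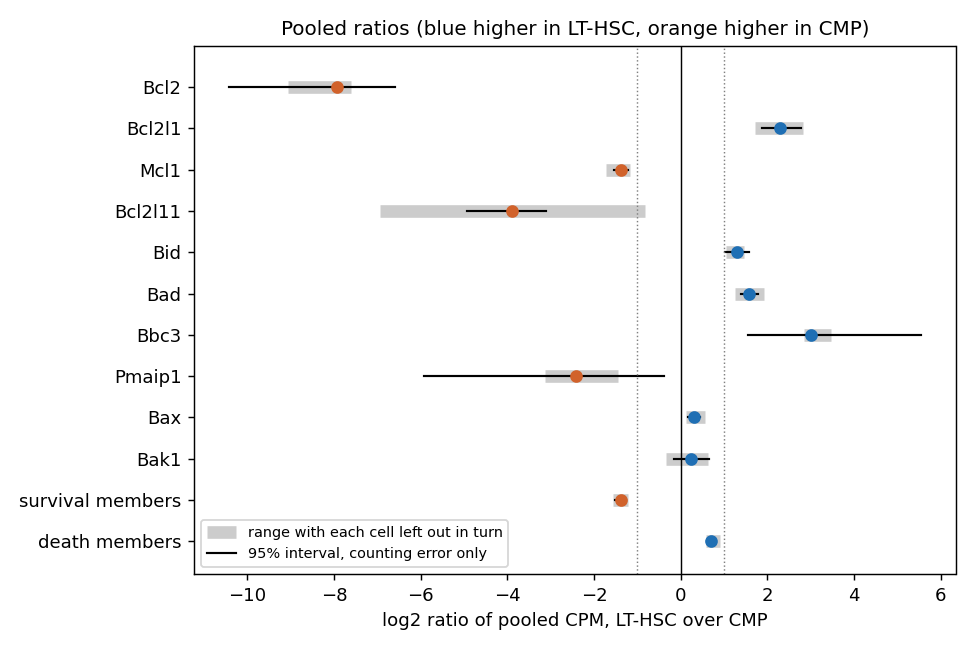
Log2 ratio of pooled CPM in LT-HSC to CMP for each member and for the summed survival and death members, with the 95% counting interval (line) and the range when each cell is left out in turn (grey bar); dotted lines mark 2-fold. The grey bar of Bcl2l11 spans −6.93 to −0.83, and for Bbc3 it leaves out the setting without LT-HSC 22, which gives no value.

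Over all cells of each gate, the sum of the survival members was lower and that of the death members higher in LT-HSC. Counts were added without division by transcript length, since 3′ ends were captured, so a sum is a share of counts and not of transcripts or protein. The 3 survival members summed to 81.5 CPM (75.9 to 87.3) in LT-HSC and 212 CPM (201 to 223) in CMP, a log2 ratio of −1.38 (counting interval −1.50 to −1.26). The 7 death members summed to 307 CPM (counting interval 297 to 318) and 188 (counting interval 178 to 199), a log2 ratio of 0.71 (counting interval 0.61 to 0.80). Within these, the BH3-only genes stood at 174 and 80.3 CPM and the effectors at 133 and 108. The death members did not share 1 direction. Bad (119 and 39.6 CPM) and Bid (50.04 and 20.2) were higher in LT-HSC, as was Bbc3 on 39 and 3 counts. Bax and Bak1 were within 2-fold, and Bcl2l11 and Pmaip1 were higher in CMP. The death sum was not redone without any of its members. All 10 together were near level, at 389 CPM in LT-HSC against 400.4 in CMP, so that what differed was the split between survival and death members.

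Survival members made up 20.95% of the family's counts in LT-HSC (Clopper-Pearson interval 19.7% to 22.3%) and 52.9% in CMP (51.1% to 54.8%), a difference of −31.98 percentage points. With Bcl2 taken out of the sum, the shares were 20.9% and 40.1%, and the survival members left, Bcl2l1 and Mcl1, stood at 81.2 CPM in LT-HSC against 126 in CMP, a log2 ratio of −0.64. With Mcl1 taken out instead, the shares were 10.3% and 32.98% and the log2 ratio −1.39, and with Bcl2l1 taken out the log2 ratio was −2.14. The share difference was thus −19.2 points without Bcl2, −22.6 without Mcl1 and −38.99 without Bcl2l1. The mix of survival genes also differed: Bcl2 and Mcl1 gave 605 and 842 of the 1497 survival counts in CMP, and Bcl2l1 and Mcl1 gave 349 and 457 of the 809 in LT-HSC.

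The cells within a gate differed in the same quantities. In LT-HSC 1 to 16, survival members made up 33.95% of the family's counts, and in LT-HSC 17 to 34 they made up 13.97%. The same blocks stood apart in 13 cell cycle genes (summed 333 and 1592 CPM), in the stem cell markers (394 and 131) and in the myeloid progenitor markers (8.504 and 62.6), and the part of these in the block difference was not tested. Mcl1 and Bak1 were higher in the first block (91.5 against 22.2 CPM, and 27.9 against 7.36), Bax was higher in the second (142 against 73.9), and Bad (113 and 122) and Bid (45.7 and 52.3) were close. Few cells carried the Bak1 and Mcl1 values. At least 10 Bak1 counts were held by 3 of 16 and 1 of 18 cells, and at least 10 Mcl1 counts by 6 and 3. In the second block, LT-HSC 24 held 107 of 145 Mcl1 counts and LT-HSC 34 held 44 of 48 Bak1 counts. CMP 1 and 2, the pair without Xist, had 40.7% survival counts and the other 22 CMP 56.7%. Against that pair alone the LT-HSC had a survival log2 ratio of −1.37 and a death log2 ratio of 0.01, with a share difference of −19.7 points. The median log2 ratio over all genes against that pair was 0.70. The pair is 2 cells: all Bcl2 and Mcl1 counts in it came from CMP 1 and all Bcl2l11 counts from CMP 2.

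**Figure D3:**
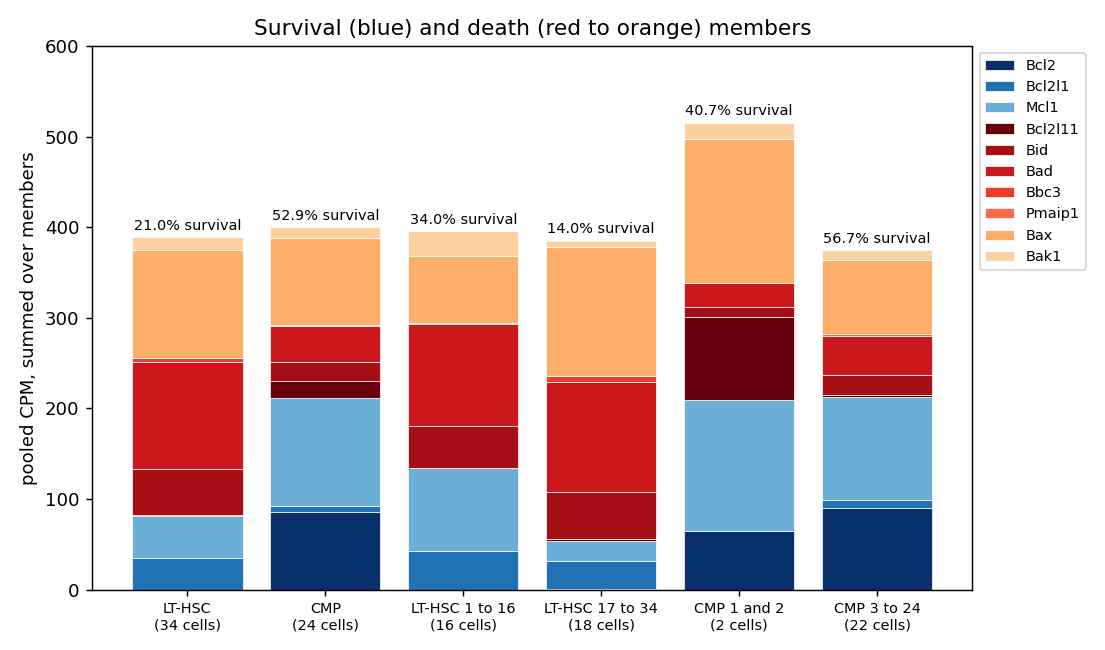
Pooled CPM of the 10 members stacked for each gate and for the blocks of cells named in the text, survival members in blue at the bottom and death members in red to orange above, with the survival share of counts over each bar. The LT-HSC and CMP bars have nearly the same height, 389 and 400.4 CPM, and differ in the blue part.

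Per cell, survival members stood at a median of 9.60 CPM in LT-HSC (range 0 to 762) and 180 in CMP (range 0 to 710). Death members stood at a median of 267 CPM in LT-HSC (range 0 to 1046) and 119 in CMP (range 22.3 to 463). The gates overlapped for both sums. In cells with at least 20 family counts, the median survival share was 4.57% over 28 LT-HSC and 62.1% over 24 CMP. Survival counts exceeded death counts in 5 of 34 LT-HSC and 15 of 24 CMP. Counting only members with at least 10 counts, 17 LT-HSC and 2 CMP held only death members, 10 and 15 held both kinds, 2 and 7 held only survival members, and 5 and 0 held neither.

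Combinations within a cell were also counted. Bcl2 and Mcl1 both reached 10 counts in 9 of 24 CMP and in 0 of 34 LT-HSC. Bax and Mcl1 both did so in 10 of 24 CMP and 3 of 34 LT-HSC. The survival gene with the most counts, among cells where one reached 10, was Mcl1 in 9 and Bcl2l1 in 3 LT-HSC, and Mcl1 in 14 and Bcl2 in 8 CMP. After thinning, the median LT-HSC had a count of 2.5 of the 10 members (range 0 to 5) and the median CMP of 5 (range 3 to 8). That difference was not seen at the stricter limit. Without thinning, the median number of members with at least 10 counts was 2 in LT-HSC (range 0 to 4) and 2 in CMP (range 1 to 6).

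**Figure D4:**
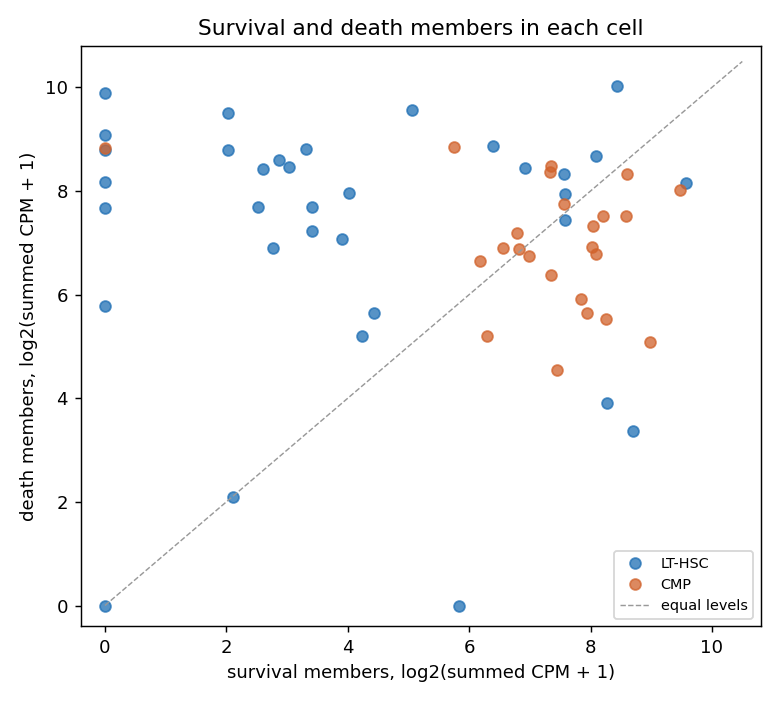
Summed death members against summed survival members in each cell, both as log2 of CPM plus 1; each point is a cell (LT-HSC blue, CMP orange) and the dashed line marks equal levels. Survival exceeded death counts in 15 of 24 CMP, which lie right of the line, and in 5 of 34 LT-HSC.

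Over 10525 genes with a length in GENCODE M21 and at least 20 counts, the Spearman correlation of transcript length with the log2 ratio was −0.21, a description across genes that share the same 58 libraries, and the median ratio ran from 0.18 in the shortest class to −0.74 in the longest, of 10 classes of equal size. Against CMP 1 and 2 alone the correlation was −0.07. Bcl2, with a transcript of 7191 bases, lies in the longest class and Bax, with 867 bases, in the shortest. Relative to the median of genes of their own length, the log2 ratios were −7.19 for Bcl2, 2.37 for Bcl2l1, −1.12 for Mcl1, −3.33 for Bcl2l11, 1.26 for Bid, 1.27 for Bad, 2.72 for Bbc3, −2.34 for Pmaip1, 0.13 for Bax and 0.19 for Bak1. Every member kept its direction and its side of 2-fold under this centring.

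Beside the counts in the lists that follow, the background over all genes with 20 counts or more was 22.7% toward LT-HSC by 2-fold and 28.1% toward CMP. Against the pair of CMP without Xist these shares were 46.2% and 22.02%, with a median log2 ratio over all genes of 0.70, and with LT-HSC 1 to 16 they were 22.7% and 37.3%, with a median of −0.36. With LT-HSC 17 to 34 they were 19.996% toward LT-HSC and 34.498% toward CMP, with a median of −0.242.

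The wider family went both ways. Of 17 other family genes, 7 had no count in any cell (Bcl2a1a, Bcl2a1b, Bcl2a1c, Bcl2a1d, Bcl2l10, Bmf and Hrk); the Bcl2a1 genes are near-identical copies whose reads counting could have dropped. Of the 9 with at least 20 counts, 3 were higher in LT-HSC by 2-fold or more, 4 in CMP, and 2 stayed inside these limits. Over the list the median log2 ratio of 0.06 was −1.50 without LT-HSC 18, −1.11 after thinning and 0.82 against the pair without Xist, where 4 were higher in LT-HSC and 2 in CMP. Bok, an effector-like member, stood at 25.7 CPM in LT-HSC against 0.28 in CMP, where it had 2 counts, with a log2 ratio of 6.18 (counting interval 4.63 to 9.56). In LT-HSC 34 lay 74.1% of its counts in that gate, and the ratio ran from 4.35 without that cell to 6.84 without CMP 17. With LT-HSC 1 to 16 the Bok ratio was 2.43. Bnip3, a mitophagy receptor induced by low oxygen, was at 52.6 and 14.2 CPM, a log2 ratio of 1.89 that was 2.64 without CMP 12 and 5.50 against the pair without Xist. Its relative Bnip3l was the most counted gene of the list and nearly level, at 214 and 205 CPM, but had a ratio of 1.48 against that pair. Bcl2l13 was higher in CMP, at 10.9 and 55.2 CPM, with a ratio of −2.34. That ratio ran from −3.25 without LT-HSC 8 to −1.86 without CMP 19. It was −1.03 with LT-HSC 1 to 16 and −4.45 with LT-HSC 17 to 34. Bcl2l14 had 1 count in LT-HSC and 59 in CMP, Becn1, an autophagy gene, stood at 4.73 and 17.0 CPM, and Bcl2l2, the gene of Bcl-w, at 1.51 and 5.52. With cells left out in turn, Bcl2l14, whose LT-HSC count lay in LT-HSC 33, had a ratio of −4.91 without CMP 24, Becn1 ran from −3.23 (without LT-HSC 24) to −1.07 (without CMP 18) and Bcl2l2 from −4.34 (without LT-HSC 18) to −0.96 (without CMP 7). Against CMP 1 and 2 alone Becn1 turned to 0.82 and Bcl2l2 was at −0.31. Bcl2l12 was at 64.9 and 37.8 CPM, under 2-fold, and at 3.93 against that pair.

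Downstream of the mitochondrion, genes differed in both directions. Of 10 apoptosome, caspase and released mitochondrial genes with at least 20 counts, 1 was higher in LT-HSC by 2-fold or more, 3 in CMP, and 6 stayed inside these limits. The list had a median log2 ratio of −0.86. With CPM averaged over cells 1 was higher in LT-HSC and 5 in CMP, and against the pair of CMP without Xist 2 and 4. Apaf1, the scaffold of the apoptosome, was at 1.41 CPM in LT-HSC against 28.2 in CMP, a log2 ratio of −4.27 that ran from −6.29 without LT-HSC 9 to −3.50 without CMP 23 and was −0.90, under 2-fold, against the pair without Xist. Casp9, the caspase that Apaf1 activates, had the opposite direction, at 18.9 and 2.83 CPM with a ratio of 2.71, between 1.74 without LT-HSC 17 and 3.33 without CMP 19. Casp2, at 29.2 and 54.2 CPM, lay near the 2-fold line, with a ratio between −1.15 and −0.76 as cells were left out.

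Genes of the inhibitor of apoptosis (IAP) family were mostly higher in CMP over all cells, but not in every subset of cells. The list goes by family, and whether each protein inhibits caspases was not tested. Of 6 genes, 5 were higher in CMP by 2-fold or more, none in LT-HSC, and 1 stayed inside these limits. Their median log2 ratio was −1.95. With LT-HSC 1 to 16 alone 2 of the 6 were higher in CMP (median −0.80), and against the pair of CMP without Xist 2 were higher in CMP and 1 in LT-HSC (median −0.82). Birc6, a large ubiquitin ligase, stood at 15.4 CPM in LT-HSC against 63.7 in CMP, a log2 ratio of −2.05 that was −2.93 without LT-HSC 8 and −0.91 against that pair. Birc3 was at 2.32 and 17.8 CPM, with a ratio of −2.92 that was −5.63 without LT-HSC 26 and −1.53 after thinning. Naip5 stood at 4.43 and 21.8 CPM, with a ratio of −2.29 that was −4.82 without LT-HSC 12 and −0.95 with LT-HSC 1 to 16. Naip2 rested on CMP 3, without which its ratio moved from −1.86 to 0.02, was −4.38 without LT-HSC 3, −0.72 against the pair without Xist and −0.32 with LT-HSC 1 to 16.

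Of 4 genes that set how long the Mcl-1 protein lasts, 2 were higher in CMP by 2-fold or more and none in LT-HSC. With LT-HSC 1 to 16 all 4 were higher in CMP, and without CMP 1 and 2 there were 3 in CMP and 1 in LT-HSC. Usp9x, the deubiquitinase that spares Mcl-1, stood at 27.2 CPM in LT-HSC against 191 in CMP, a log2 ratio of −2.81 (counting interval −3.01 to −2.62) that ran from −3.58 without LT-HSC 34 to −2.09 without CMP 18. Huwe1, a ligase that marks Mcl-1 for degradation, was at 21.4 and 108 CPM, with a ratio of −2.33 (counting interval −2.56 to −2.11). Both therefore had the direction of Mcl1 itself. They lie on the X chromosome, and the gates differed in sex-linked transcripts; against the pair of CMP without Xist their ratios were −1.92 and −2.24. Of the other ligases, Fbxw7 (7.85 and 15.01 CPM) moved to −6.60 without LT-HSC 27 and to 0.20 without CMP 4, and Btrc (19.3 and 21.7 CPM) to −1.35 without LT-HSC 34 and 1.35 without CMP 1. With LT-HSC 1 to 16 Fbxw7 was at −4.09 and Btrc at −3.30. The list's median of −1.63 was −2.54 without LT-HSC 27 and −2.92 with LT-HSC 1 to 16.

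Death receptor genes came next, and their counts varied with the cells taken. Of 9 genes, 3 were higher in LT-HSC by 2-fold or more, none in CMP, and 6 stayed inside these limits. Across the list the median log2 ratio was 0.21. With LT-HSC 1 to 16 there were 4 higher in LT-HSC and 2 in CMP, with LT-HSC 17 to 34 these numbers were 1 and 0, and against the pair of CMP without Xist 5 were higher in LT-HSC (median 1.24). Fas, the receptor that reaches Bid through caspase-8, stood at 12.9 CPM in LT-HSC against 0.99 in CMP, a log2 ratio of 3.61 (counting interval 2.62 to 5.04), which was 2.31 without LT-HSC 17 and 5.90 without CMP 6. Its 128 LT-HSC counts lay in 4 cells. Tnfrsf10b, the TRAIL receptor, was at 8.06 and 1.13 CPM, and its ratio of 2.75 was 0.60 without LT-HSC 10 and 0.89 with LT-HSC 17 to 34. Tradd and Tnfrsf1a, an adaptor and a TNF receptor, were close to the 2-fold line, at 50.5 and 24.4 CPM and at 72.2 and 36.3. With each cell left out in turn, Tradd was under 2-fold in 14 of 58 cases and Tnfrsf1a in 27.

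Genes of p53 and its targets went both ways over all cells. Of 11 with at least 20 counts, 4 were higher in LT-HSC by 2-fold or more, 4 in CMP, and 3 stayed inside these limits. Across these genes the median log2 ratio of −0.08 was −1.36 without LT-HSC 18. With LT-HSC 1 to 16 there were 6 higher in CMP and 1 in LT-HSC (median −1.15), and against the pair of CMP without Xist 1 and 3 (median 0.26). Cdkn1a, the cell cycle inhibitor p21, stood at 15.8 CPM in LT-HSC against 69.9 in CMP, a log2 ratio of −2.14 that was −2.80 without LT-HSC 17 and turned to 3.77 against the pair of CMP without Xist. Trp53inp1 was at 1.81 and 16.7 CPM, with a ratio of −3.17 that ran from −5.19 without LT-HSC 31 to −2.37 without CMP 3 and was −0.36, under 2-fold, against that pair. Perp had 2 LT-HSC counts and 59 CMP counts, with a ratio of −5.06 that was −5.79 without LT-HSC 5 and −3.32 without CMP 16. Zmat3, at 12.5 and 2.12 CPM, changed direction without LT-HSC 18, from 2.51 to −2.51, was 4.51 without CMP 1 and was 0.37 against the pair without Xist. Bbc3 and Pmaip1, the p53 targets of the family itself, were described above as few counts in opposite directions.

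Upstream signalling genes were mostly within 2-fold over all cells, but not after thinning or in subsets of cells. Of 8 with at least 20 counts, 2 were higher in LT-HSC by 2-fold or more, none in CMP, and 6 stayed inside these limits. For the list the median log2 ratio of 0.42 was −0.08 without LT-HSC 13. After thinning, and also with LT-HSC 1 to 16, 4 were higher in LT-HSC and 1 in CMP, and against the pair of CMP without Xist 6 of 8 were higher in LT-HSC (median 2.17). Pim2, a kinase induced by cytokines that phosphorylates Bad, stood at 49.3 CPM in LT-HSC against 2.83 in CMP, a log2 ratio of 4.09 (counting interval 3.48 to 4.85) that was 5.71 without CMP 9. Foxo1, a factor that can drive Bcl2l11, was at 8.26 and 1.27 CPM, but its ratio of 2.63 turned to −1.90 without LT-HSC 13 and was 5.19 without CMP 3. Ddit3, the stress factor CHOP, was at 42.2 and 21.5 CPM, with a ratio of 0.97 that ran from 0.63 to 1.54 over the cells left out and was 4.44 against the pair without Xist, and E2f1 at 11.1 and 15.6, with a ratio of −0.49 that was −4.26 without LT-HSC 34 and 0.34 without CMP 20.

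**Figure D5:**
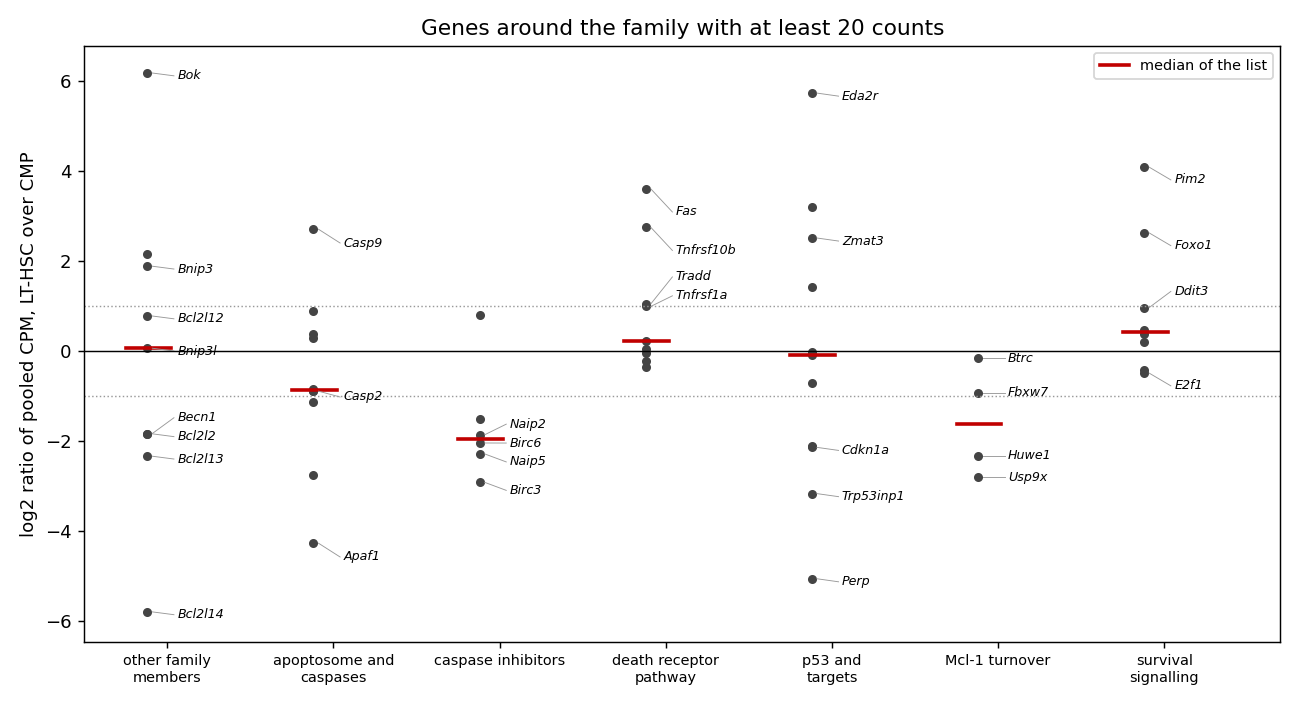
Log2 ratio of pooled CPM in LT-HSC to CMP for every gene with at least 20 counts in 7 lists around the family; each point is a gene, most of those named in the text are labelled, the red bar is the list's median and dotted lines mark 2-fold. The IAP family genes, drawn as caspase inhibitors, lie mostly below −1, with a median of −1.95. Eda2r, which had no CMP count, is drawn at its ratio with 0.5 added.

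Genes whose level followed that of Bax over cells were sought, Bax being the member with the most counts over both pools. Among 2904 genes with enough counts and seen in 1 of every 2 cells or more in both gates, the highest mean of the within-gate Spearman correlations was that of Cycs, the gene of cytochrome c, at 0.51 (0.39 over 34 LT-HSC and 0.64 over 24 CMP). Usp1, a deubiquitinase, followed at 0.48 and Psmd1, a proteasome subunit, at 0.45. Cells of a gate share their depth and detection, and these values describe the order only.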

How the data were processed

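The authors deposited 1 table of counts, whole numbers for 58 cells in columns and gene symbols in rows. Per the labels' protocols, RNA of each sorted cell was reverse transcribed with a barcoded oligo(dT) primer carrying a molecular identifier (modified Smart-seq2), amplified, pooled, and captured at 3′ ends. Per the submitters' processing notes, mm10, TopHat2 2.0.12, HTSeq and Seurat 2.0 were used, with no role given. Whether counts are reads or molecules, and whether strand was used, is not given in the sources used here. If they are reads, the intervals are too narrow.

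All 58 columns were matched to a cell by name, and none was removed. No doublet caller was run on singly sorted cells. No 2 columns were identical. Counts were summed per gate and divided by 9931131 (LT-HSC) or 7062737 (CMP) to give CPM, with exact Poisson 95% intervals. Log2 ratios used 0.5 added to each count and exact conditional binomial intervals, and shares used Clopper-Pearson intervals. A call is a 2-fold ratio among genes with at least 20 counts. Detection was also computed after thinning cells to 97978 counts, with 4 LT-HSC and 2 CMP too shallow. No p-value was computed, since each gate is 1 sample. The ratio and its interval were tested on simulated Poisson counts in which the cells of a gate did not differ. The spread between cells was not simulated, so that test covers counting error only. Python 3.11.15, numpy 2.4.6, scipy 1.17.1, pandas 2.3.3 and GENCODE M21 were used.

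Members and lists were chosen with earlier results of these data known. Named genes are all members, other family genes with at least 50 counts, up to 4 genes per list with the largest ratios among those with at least 50 counts, and the 3 genes most like Bax. Xist, the Y-linked genes, S100a8, the genes behind the gates and the marker lists describe the cells. Eda2r is named for a plot, and further genes of other forms of cell death are named to show that list's directions. A gene that the rule names is not reported here. Alternatives were averaging CPM over cells, median-of-ratios scaling of the pools, totals over genes with at least 20 counts, thinning, leaving out shallow cells, CMP 1 and 2 or each cell in turn, only cells without an Xist count, LT-HSC 1 to 16 or 17 to 34, an added count of 1 and other count minimums. Centring on transcript length, list values under each alternative, and sums without 1 survival gene were added after the data were seen.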

Additional observations from a re-analysis of the deposited data

How the results depend on the processing

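No paired analysis was possible because the cell numbers only name cells and no result comes from a test. The log2 ratio of summed survival members (−1.38) was −1.22 with median-of-ratios scaling, −0.66 with LT-HSC 1 to 16 only and −1.98 with LT-HSC 17 to 34 only, and with each cell left out it ran from −1.55 to −1.21. That of death members (0.71) was 0.85 with CPM averaged over cells, 0.87 with median-of-ratios scaling, 0.93 after thinning, 0.92 without CMP 1 and 2, 0.0051 with cells without an Xist count, 0.47 with LT-HSC 1 to 16 and 0.81 with LT-HSC 17 to 34 (0.59 to 0.90 with each cell left out). The survival share difference (−31.98 points) was −35.7 without CMP 1 and 2, −19.7 with cells without an Xist count, −19.0 with LT-HSC 1 to 16 and −39.0 with LT-HSC 17 to 34 (−37.5 to −29.5 with each cell left out). Members at least 2-fold apart numbered 6 to 8, from 6 to 7 with each cell left out, 6 among genes with at least 100 counts and 8 with at least 1. The shares over all genes at those count minimums are not given here. With cells without an Xist count 6 members were that far apart, beside 68.3% of all genes. With LT-HSC 1 to 16 there were also 6, beside 60.0%, where the share over all cells was 50.8%. The causes of these shifts were not tested.

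Over all genes, the median log2 ratio shifted by 0.16 with median-of-ratios scaling, by 0.83 with cells without an Xist count, by −0.23 with LT-HSC 1 to 16 and by −0.11 with LT-HSC 17 to 34. Relative to these shifts, Bcl2, Bcl2l1, Bid, Bad and Mcl1 kept their direction. Mcl1 was nonetheless at −0.38 with LT-HSC 1 to 16, near the median over all genes of −0.36. With cells without an Xist count, the summed death members (0.0051) and Bax (−0.43) lay below the median over all genes of 0.70. Bax changed sign in 2 of 13 alternatives (a cell left out in turn entering by its extremes) and Bak1 in 3. Bbc3 had no ratio with LT-HSC 1 to 16, and Pmaip1 none after thinning or with cells without an Xist count, since both pools were at or under the floor. Among the other genes named, Zmat3 turned to −2.32 with LT-HSC 1 to 16, Foxo1 to −2.55 with LT-HSC 17 to 34, E2f1 to 2.52 with cells without an Xist count and Btrc to 0.51 after thinning, which also moved Fas to 1.87 and left Bok no CMP count (at least 3.43 against the floor). Over both pools Bbc3 had 42 counts and Pmaip1 11, the fewest of the 10 members and those with the widest counting intervals of the log2 ratio.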

Other observations

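Genes of other forms of cell death were listed after the family's values were seen, so their values are descriptions only. Of 11 with at least 20 counts, 2 were higher in LT-HSC by 2-fold or more, 3 in CMP, and 6 stayed inside these limits. The median log2 ratio was −0.45. Against the pair of CMP without Xist, 4 were higher in CMP and none in LT-HSC. Of the 4 inflammasome genes in this list, Nlrp3 and Casp1 were higher in CMP, and Pycard (195 and 321 CPM) and Casp4 (19.5 and 22.5 CPM) were within 2-fold. Nlrp3, an inflammasome sensor, had no count in LT-HSC and 116 in CMP, at least 54.4-fold higher in CMP against a floor of 3 counts. Casp1, the caspase that inflammasomes activate, stood at 6.85 CPM in LT-HSC against 48.1 in CMP, a log2 ratio of −2.81 that was −3.66 without LT-HSC 31. Gsdmd, whose cleaved protein forms the pore, was higher in LT-HSC, at 66.0 and 27.3 CPM with a ratio of 1.27, but at −0.27 with LT-HSC 1 to 16 and at 0.23 against the pair of CMP without Xist. Of the necroptosis genes, Zbp1 was at 5.84 and 14.7 CPM, with a ratio of −1.33 that was −0.34 without CMP 1, and Ripk3 and Mlkl lay within 2-fold, at 50.2 and 68.7 CPM and at 16.7 and 26.9. The ferroptosis genes differed among themselves. Gpx4, which guards membrane lipids against ferroptosis, was level at 867 and 861 CPM, and Acsl4 lay within 2-fold, at 27.3 and 33.6. Aifm2 had 45 counts in LT-HSC and 2 in CMP, a log2 ratio of 3.69 (counting interval 2.06 to 7.09). Slc7a11 had 0 counts in LT-HSC and 13 in CMP, too few for a call.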
